A study of Homo sapiens with 4 samples.

Results

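RNA levels were compared between SK-MEL-28 cells treated with siLINC01291 and SK-MEL-28 cells treated with siNC, using 1 library of each, which are 2 of the 4 libraries of the study. The genes described are those with an FPKM (a read count scaled to library size and to gene length) of at least 1 in either SK-MEL-28 library. These were 12336 of the 18175 genes and loci in the table. SK-MEL-28 is an established human melanoma line, grown for this study in a standard serum-containing medium. siLINC01291 is, by its name, a small interfering RNA against the long non-coding RNA LINC01291, and siNC its negative control. Both SK-MEL-28 groups carry the same line background, and their titles differ only in the siRNA. The treatment text also lists EL, which it does not explain, and the sources used here do not say which libraries, if any, received it. The remaining 2 libraries hold the same siRNA pair in A375, a second melanoma line. Libraries were made from RNA captured on oligo(dT) beads.

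A small interfering RNA is loaded into an Argonaute protein and guides it to RNAs that pair with it, which are then cut or destabilised. Long non-coding RNAs are transcripts without a long open reading frame, and many act in the nucleus or as scaffolds. Melanoma cells can sit in a pigmented state driven by the transcription factors MITF and SOX10, or in a dedifferentiated state with high matrix, integrin and AP-1 genes. YAP and TAZ, coactivators of the TEAD factors, are active in many cells of the latter kind.

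With 1 library a group there is no replicate check of any difference in SK-MEL-28, and no p-value is given. The words higher and lower describe these libraries only. The siNC library held 29416145 counts and the siLINC01291 library 29351240, the 10 most abundant genes took 7.56 and 7.29% of them, and genes of the mitochondrial genome 6.35 and 6.38%. A floor of 3 counts corresponded to a CPM (a count scaled to library size alone, as parts of the library total) of 0.102 in both. Log2 ratios are siLINC01291 over siNC, computed from normalised CPM with a small constant added to each count, so that 1 stands for a 2-fold higher and -1 for a 2-fold lower level. Intervals are 95% exact binomial intervals of the ratio of counts and cover counting error only.

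The lineage markers matched a pigmented melanoma line in both libraries. PMEL, a melanosome matrix protein, had an FPKM of 804 in siNC and 1043 in siLINC01291. MLANA, another melanosome protein, had 286 and 321, and SOX10 had 127 and 147. Markers of other cells stayed low. Of 10 keratinocyte markers 1 was expressed (KRT10), of 10 fibroblast markers 1 (LUM), of 10 endothelial markers 1 (EGFL7), and of 12 blood and immune markers none. The summed normalised CPM of these lists was 48.5 in siNC and 49.9 in siLINC01291 for keratinocytes, 23.6 and 23.3 for fibroblasts, 11.9 in both for endothelium, and 0.258 and 0.360 for blood.

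The targeted transcript was lower in the siLINC01291 library. LINC01291 (ENSG00000204792) gave 998 counts (FPKM 8.11) in siNC and 454 counts (FPKM 3.70) in siLINC01291. This is a log2 ratio of -1.17, and 44.5% of the siNC level was left (interval 39.7 to 49.7%). The neighbouring lincRNA LINC01293 had an FPKM of 37.2 and 12.8 (log2 ratio -1.57). The siRNA sequence was not part of the labels or the table.

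Short words that recur in the 3′ UTRs of the lowest and highest genes of SK-MEL-28 are shown first, because the results return to them. The words were known from earlier work on these same libraries, so their counts are a description and no independent support. CTATGAA and TCTATGA overlap by 6 bases and join to the 8-base word TCTATGAA. They were searched on the sense strand only, in the 3′ UTR of 1 principal protein-coding transcript per gene, and 1454 of 9982 searched expressed genes (14.6%) hold either. TCGGAGA, searched the same way, is held by 185 genes (1.85%). A match is a description of letters and not a shown binding site. All positions are on GRCh38 from GENCODE 29, and capitals mark the word. The LINC01291 site lies in the exonic sequence of each of its 3 annotated transcripts, and LINC01293 holds none.

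LINC01291, chr2:74931483-74931506, + strand: gtctggacTCTATGAAgaatcttc
WWTR1, 3′ UTR, chr3:149519411-149519434, - strand: taattctaTCTATGAAactgaagg
SDHD, 3′ UTR, chr11:112095726-112095749, + strand: aaatgtatTCTATGAAaataattt
SLC7A11, 3′ UTR, chr4:138164541-138164564, - strand: gatatttaTCTATGAAgatataaa
IGSF3, 3′ UTR, chr1:116574862-116574885, - strand: ttgagcttTCTATGAAaaacccca
PDIA6, 3′ UTR, chr2:10784054-10784077, - strand: tgaaaaatTCTATGAAttgttgta
DKK1, 3′ UTR, chr10:52316843-52316865, + strand: aatagatgCTATGAAaacctttt
NFYC, 3′ UTR, chr1:40771074-40771096, + strand: gtccaatgCTATGAAattaaaat
RPL5, 3′ UTR, chr1:92841870-92841892, + strand: agcaatttTCTATGAttttttca

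The first lines above share the 8-base word, while DKK1 and NFYC hold only its last 7 bases and RPL5 only its first 7. All of these genes were at least 2-fold lower in siLINC01291. The next sites hold the word of the highest genes, and each of these genes was at least 2-fold higher.

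CHST14, 3′ UTR, chr15:40472407-40472429, + strand: cctgtcatTCGGAGAaactctgg
TPM4, 3′ UTR, chr19:16101485-16101507, + strand: attttgtaTCGGAGAagctttga
BICD2, 3′ UTR, chr9:92712926-92712948, - strand: ctttagacTCGGAGAtgagtgct
NOLC1, 3′ UTR, chr10:102162296-102162318, + strand: ggtgatgaTCGGAGActacttac
HABP4, 3′ UTR, chr9:96490462-96490484, + strand: ctgagtttTCGGAGAccaagaaa

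Most genes of SK-MEL-28 had nearly the same level in both libraries. The median log2 ratio over the 12336 expressed genes was 0.00, the middle portion between the 25th and 75th percentile lay between -0.16 and 0.19, and the 1st and 99th percentiles were -1.17 and 1.19. At least 2-fold higher were 212 genes (1.72% of the expressed genes), and at least 2-fold lower 190 (1.54%). At 1.5-fold the numbers were 780 (6.32%) and 627 (5.08%).

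The lower genes were the better measured of the 2 sets. Their median summed count over both libraries was 567, against 68 for the higher genes, and the counting interval lay beyond 1.5-fold for 134 of the 190 and for 99 of the 212. Among the 7278 genes with an FPKM of at least 5, 83 (1.14%) were lower by 2-fold or more and 49 (0.673%) higher. Between an FPKM of 1 and 5 the order was the other way, with 163 higher and 107 lower among 5058 genes. The spread of log2 ratios narrowed with level, from an SD of 0.48 across genes at an FPKM of 1 to 5 to 0.24 at 100 and over. At the edge of the expression minimum, 275 genes had a larger FPKM of 1 to 1.1, with 21 higher and 17 lower, and 325 genes just outside had 0.9 to 1, with 22 higher and 19 lower. The nearest protein-coding genes on the sides of that edge were GATA6 (FPKM 1.000 and 0.9305) and EPHA2 (0.9994 and 0.6895).

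The kinds of RNA also differed between the sets. Protein-coding genes make up 82.7% of the expressed genes, but 113 of the 190 lower genes and 70 of the 212 higher ones. Among the higher genes 28 were lincRNAs, 26 antisense RNAs, 24 pseudogenes, 15 small nuclear RNAs and 7 microRNA genes. Among the lower genes 6 were lincRNAs, 3 antisense RNAs, 28 pseudogenes, 5 small nuclear RNAs and 15 microRNA genes. The shares of these kinds over all expressed genes are not given here, so the counts compare the 2 sets only. No label says that counting used the strand of a read, so reads of an antisense RNA and of the gene it overlaps cannot be told apart, and pseudogenes can share reads with their parent genes. An FPKM of at least 1 in 1 library and under 0.5 in the other was seen for 99 genes, of which 55 were higher and 44 lower in siLINC01291.

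**Figure D1:**
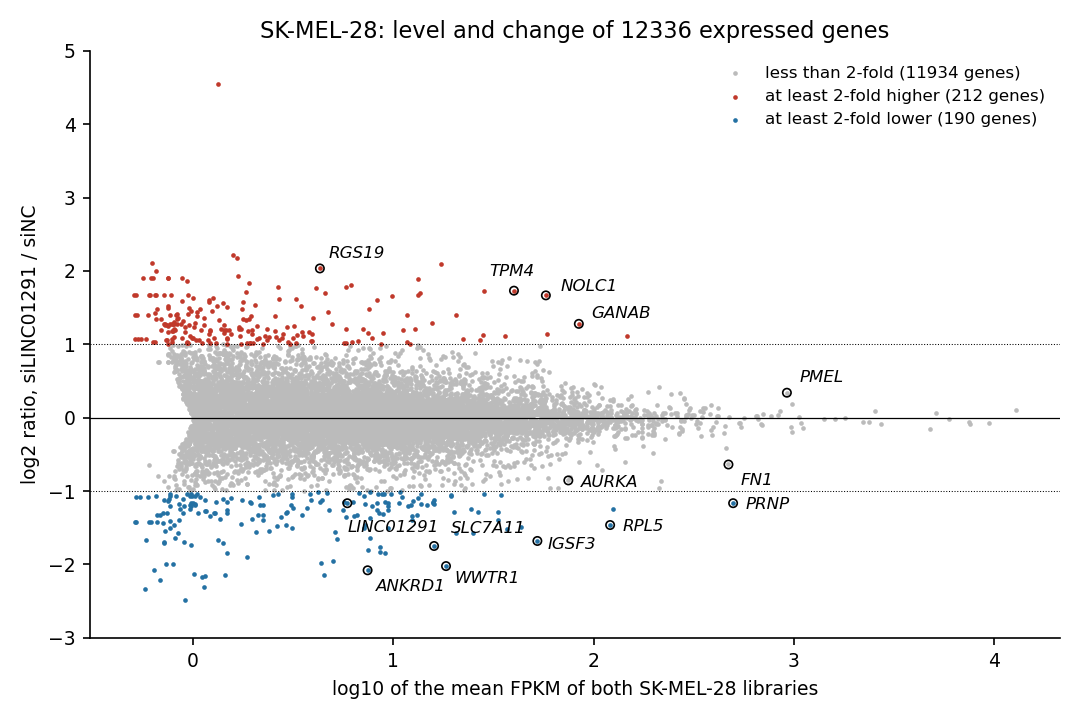
Log2 ratio of siLINC01291 over siNC (y axis) against the log10 of the mean FPKM of both SK-MEL-28 libraries (x axis) for 12336 expressed genes, each point a gene, with dotted lines at 2-fold. The cloud narrows to the right, and most of the 212 higher genes (red) sit at low FPKM, while well expressed lower genes (blue) include RPL5 and PRNP.

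Only 5 genes with a larger FPKM of at least 100 differed by 2-fold or more, and they are named here after their values were seen where no other rule names them. PRNP, the cell-surface prion protein, had an FPKM of 683 in siNC and 312 in siLINC01291. RPL5, a protein of the large ribosomal subunit, had 176 and 65.6, and PTMA, a small acidic nuclear protein, had 174 and 75.7. On the higher side, GANAB, a glucosidase subunit that trims glycans in the endoplasmic reticulum, had 48.4 and 120, and UCN2, a peptide hormone of the corticotropin-releasing family, had 90.9 and 202. The log2 ratios were -1.17, -1.46, -1.24, 1.28 and 1.12 in that order.

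The 15 lowest genes with an FPKM of at least 5 ran from ANKRD46 at -2.15 to CXCL8 at -1.57. Of these 15 genes 13 had a searched 3′ UTR, and 9 of those hold a low word. Several act in adhesion and growth signalling. WWTR1, which codes for the coactivator TAZ, had 7218 counts (FPKM 29.3) in siNC and 1816 (FPKM 7.39) in siLINC01291, which left 24.6% (interval 23.4 to 25.9%, log2 ratio -2.02). ANKRD1, a target gene of YAP and TAZ, had 634 and 152 counts (log2 ratio -2.08). CXCL8, the chemokine interleukin 8, had an FPKM of 30.8 and 10.6 (-1.57). These 3 genes were thus all about 3 to 4 times lower, and only WWTR1 among them holds a word of the low genes in its 3′ UTR, at 3 places.

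Others of the lowest genes have housekeeping or metabolic roles. SLC7A11, which brings cystine into the cell for glutathione, had 6972 and 2121 counts, a log2 ratio of -1.75, and its 3′ UTR holds 4 sites of the words. SDHD, a membrane subunit of succinate dehydrogenase, had an FPKM of 14.1 and 4.03 (-1.84). NFYC, a subunit of the CCAAT-binding factor NF-Y, had 11.5 and 3.77 (-1.64). CARNMT1, a methyltransferase of carnosine, had 7.93 and 2.58 (-1.65). Each of these 4 genes holds at least 1 site.

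At the cell surface, IGSF3, an immunoglobulin superfamily membrane protein, was the most abundant of the 15 lowest by counts. It had 17337 counts in siNC and 5533 in siLINC01291 (FPKM 79.5 and 25.4), and 31.2% was left (interval 30.3 to 32.2%). DKK1, a secreted inhibitor of WNT signalling, had an FPKM of 11.6 and 3.38 (log2 ratio -1.80). The membrane proteins FAM234B and SMIM13 had log2 ratios of -1.98 and -1.77, and both hold 1 site. MEMO1P1, at -1.95, is a pseudogene and uncertain. ANKRD46 had the lowest ratio, with 1261 and 290 counts, and holds no site.

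The 15 highest genes with an FPKM of at least 5 ran from SPCS2P4, a pseudogene, at 2.09 to SRXN1 at 1.52. RGS19, a regulator that shortens G-protein signals, had 98 counts (FPKM 1.64) in siNC and 416 (FPKM 6.97) in siLINC01291, a log2 ratio of 2.03. CHST14, a sulfotransferase of dermatan sulfate, had an FPKM of 2.65 and 9.61 (1.81). OGFR, the opioid growth factor receptor, had 6.27 and 20.9 (1.70). Among RGS19, CHST14 and OGFR the FPKM in siNC was 6.27 or less.

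TPM4 and NOLC1 were better expressed in both libraries. TPM4 (ENSG00000167460), a tropomyosin of actin filaments, had 6641 counts (FPKM 18.2) in siNC and 22547 (FPKM 61.9) in siLINC01291, 3.32-fold higher (interval 3.23 to 3.41). NOLC1, a nucleolar phosphoprotein of ribosome biogenesis, had an FPKM of 27.2 and 88.5 (log2 ratio 1.67). BICD2, an adaptor of the dynein motor, had 6.26 and 20.4 (1.67), and HABP4, a hyaluronan and RNA binding protein, had 4.62 and 15 (1.66). With CHST14 these make 5 of the 15 highest genes that hold TCGGAGA, and none of the 15 holds a word of the low genes.

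Some others of the 15 highest are less firm. SSX2, a cancer-testis antigen at 1.6, has close copies on the X chromosome that can take its reads. MTX1P1 (1.89) and RNA5SP40 (1.73) are pseudogenes. MIR4740 rested on 3 and 14 counts (1.69) and RNU7-3P on 2 and 10 (1.61), so their intervals reach close to no difference. By contrast, SRXN1, which reduces oxidised peroxiredoxins, had 130 and 385 counts (1.52) and an interval of 2.37-fold to 3.56-fold.

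**Figure D2:**
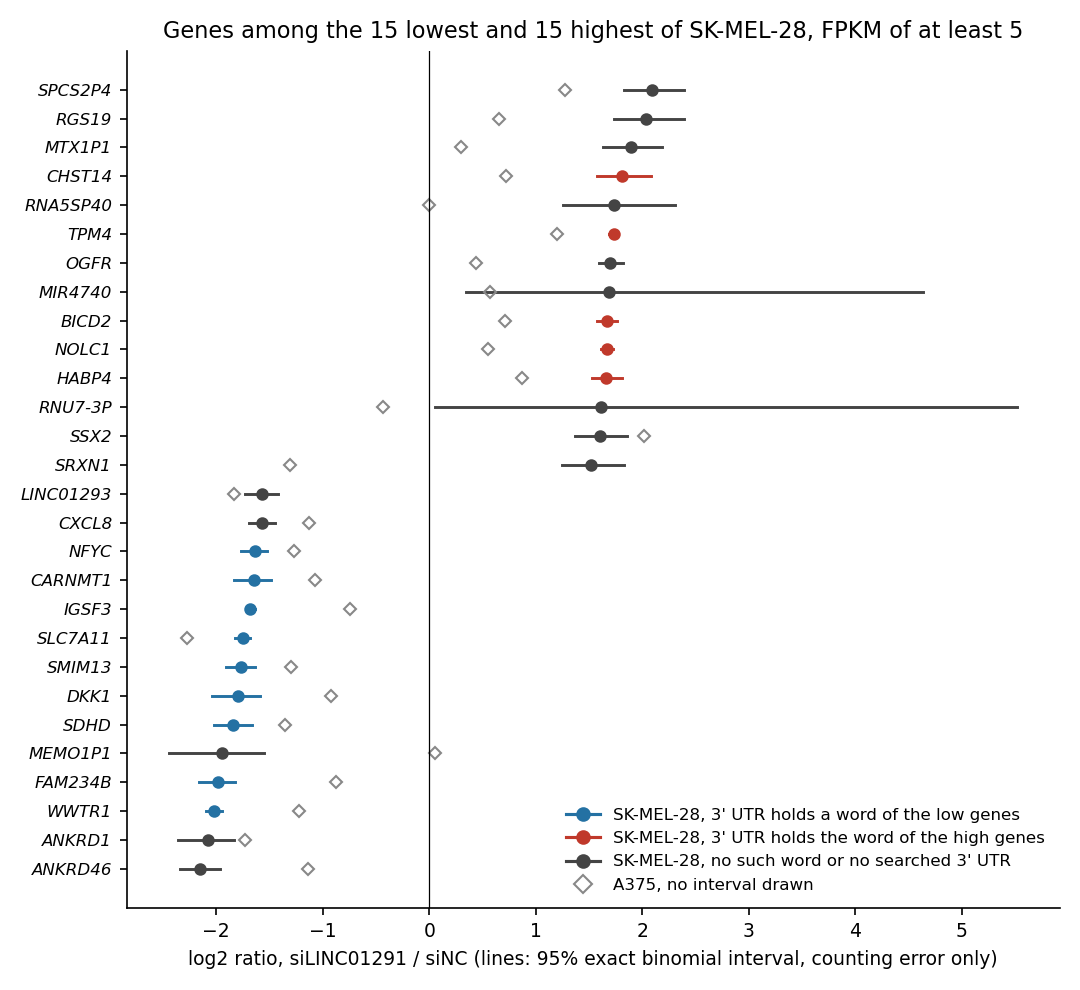
Log2 ratio (x axis) of genes among the 15 lowest and 15 highest of SK-MEL-28 at an FPKM of at least 5 (y axis), as filled circles with lines for the 95% counting interval, and the A375 ratio of the same gene as an open diamond. Blue marks genes whose 3′ UTR holds a word of the low genes, red those that hold TCGGAGA, and the long lines belong to MIR4740 and RNU7-3P, which rest on few counts.

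In amount, rather than ratio, the largest loss was that of FN1. FN1, the matrix glycoprotein fibronectin, had 288583 counts in siNC and 189665 in siLINC01291, a change of -3798 in normalised CPM at a log2 ratio of only -0.64. PRNP changed by -1124 CPM. Next came transcripts with small ratios and high levels, MT-CO1 (-786 CPM, log2 ratio -0.07) and ENO1, a glycolytic enzyme (-745 CPM, -0.20), followed by MT-ND4 (-640 CPM, -0.08) and AHNAK, a large scaffold protein (-576 CPM, -0.27). SLC16A6, a monocarboxylate transporter family member, had a change of -552 CPM (-0.87), and TNC, the matrix protein tenascin C, of -551 CPM (-0.71).

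The gains in amount were smaller. PMEL gained 851 CPM at a log2 ratio of 0.34, MT-CO2 701 (0.11), the actin gene ACTB 586 (0.18) and TPM4 567 (1.73). GANAB gained 377 CPM. G3BP2, a stress granule protein whose 3′ UTR holds TCGGAGA, gained 310 CPM (FPKM 17.4 in siNC and 39.1 in siLINC01291). MMP14, a membrane-bound matrix protease that holds the same word, gained 302 CPM (0.42), and MYO9B, an unconventional myosin, 295 CPM (0.77).

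Most genes of the mitosis list were lower, each by a modest amount. The list does not hold MAD2L1, a spindle checkpoint gene given below that was at least 2-fold lower. Of 44 expressed members of the mitosis list, 42 had a log2 ratio below 0 and 17 were at least 1.5-fold lower (5.08% over all expressed genes), none was 1.5-fold higher, and none reached 2-fold. Their median was -0.51, against 0.00 over all expressed genes. CCNA2, the cyclin of S phase and mitotic entry, had an FPKM of 44.7 in siNC and 24.4 in siLINC01291 (log2 ratio -0.90). The spindle kinase AURKA had 95.6 and 54.1 (-0.85), the kinesin KIF20A 29.5 and 17.0 (-0.83), and the mitotic kinase PLK1 30.2 and 18.9 (-0.71). MKI67, a proliferation marker, had 54.1 and 37.6 (-0.56).

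The roles within the mitosis list had like medians, -0.52 for cyclins and kinases, -0.52 for kinesins and spindle genes and -0.49 for centromere, condensin and exit genes. The 2 members above 0 were the survivin gene BIRC5 (0.10) and INCENP (0.11). Their partners in the chromosomal passenger complex, CDCA8 and AURKB, were at -0.61 and -0.15. A low word is held by 1 member of the list, and the median without it was -0.50. In bulk samples, fewer cells of a kind, such as cells in mitosis, and less RNA per cell cannot be told apart.

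DNA replication genes had no such common shift. The 55 expressed members had a median of -0.05, and 2 of them were at least 2-fold lower (1.54% over all expressed genes). These were GINS1, a subunit of the replicative helicase (FPKM 10.6 and 3.82, log2 ratio -1.50), and GMNN, the inhibitor of origin licensing geminin (21.5 and 9.91, -1.15). Both hold a low word, GINS1 at 2 sites. PCNA (-0.07) and MCM2 (0.06) were near 0. Among 9 expressed inhibitors of cyclin-dependent kinases and relatives the median was -0.35, with CDKN1B at -0.69 (FPKM 12.5 and 7.91) and CDKN1A at -0.53 (9.93 and 7.02). The melanoma suppressor CDKN2A was at 0.02.

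Genes of the dedifferentiated melanoma state were lower too. At least 1.5-fold lower were 9 of 22 expressed members (5.08% over all expressed genes), and at least 2-fold lower 2, CXCL8 among them (1.54%). Of the 22 members 19 were below 0, with a median of -0.42. The secreted and matrix proteins among them had a median of -0.68, with 8 of 8 below 0 and 6 at least 1.5-fold lower, and their summed normalised CPM was 13653 in siNC and 8832 in siLINC01291, most of it FN1. LOXL2, an enzyme that cross-links collagen, had an FPKM of 4.75 and 2.44, with 50.1% left and so just short of 2-fold, and TNC had 136 and 85.3 (-0.71). Receptors of the list had a median of -0.32. AXL, a receptor kinase of this state, was under the expression minimum with 0.667 and 0.516. Of the 10 fibroblast markers, some of which also make matrix, LUM alone was expressed, so their sum given above cannot stand for the others. Their defining collagen genes were not among the expressed genes.

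Within the YAP and TAZ pathway, WWTR1 stood apart from its paralogue. YAP1 had an FPKM of 18.9 in siNC and 18.5 in siLINC01291 (log2 ratio -0.06), although its 3′ UTR also holds 2 low words. Of 34 expressed members 25 were below 0, with a median of -0.22. The 2 members at least 2-fold lower (1.54% over all expressed genes) were WWTR1 and ANKRD1. Among 16 expressed targets the median was -0.25, with CRIM1 at -0.77 and the classical targets CCN2 and CCN1 at -0.43 and -0.28. STK3, an upstream kinase of the pathway that holds a low word, was at -0.81.

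The matrix and TGF-beta lists had small medians and a few genes at least 2-fold lower (1.54% over all expressed genes). In the matrix and protease list of 29 expressed members 3 were at least 2-fold lower, among them the collagenase MMP1 (FPKM 1.64 and 0.683) and the membrane protease ADAM9 (12.9 and 5.92, log2 ratio -1.16). All 3 were among its 19 proteases and inhibitors, of which 16 were below 0 and 5 at least 1.5-fold lower (5.08% over all expressed genes). The median of these 19 was -0.19, and that of the 10 collagens and laminins 0.07. In the TGF-beta and BMP list of 27, with a median of -0.20, 2 were at least 2-fold lower, among them the type II receptor TGFBR2 (11.7 and 5.81, -1.05). At least 1.5-fold lower were 4 of the 27, and none was 1.5-fold higher. ID2 (-0.70) and SMAD3 (-0.62) were lower by less. Of 12 expressed cytokines and their receptors, CXCL8 alone reached 2-fold, and IL24 was at -0.90.

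The melanocyte lineage list leaned upward by small amounts. Of 29 expressed members 20 were above 0, the median was 0.15, and none differed by 1.5-fold in either direction. The 14 expressed melanosome and pigment genes had a median of 0.23 and a summed normalised CPM of 8216 in siNC and 9355 in siLINC01291. OCA2, a melanosomal chloride channel protein, had an FPKM of 31.7 and 48.0 (log2 ratio 0.56), and TRPM1, the melastatin channel, 24.4 and 36.7 (0.55). MITF itself had 60.6 and 75.8 (0.29), and BCL2A1, an antiapoptotic target of MITF, 39.3 and 59.5 (0.56). PAX3 (-0.54) and LEF1 (-0.52), transcription factors of the lineage, were lower, and the pigment enzyme DCT was at -0.03.

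**Figure D3:**
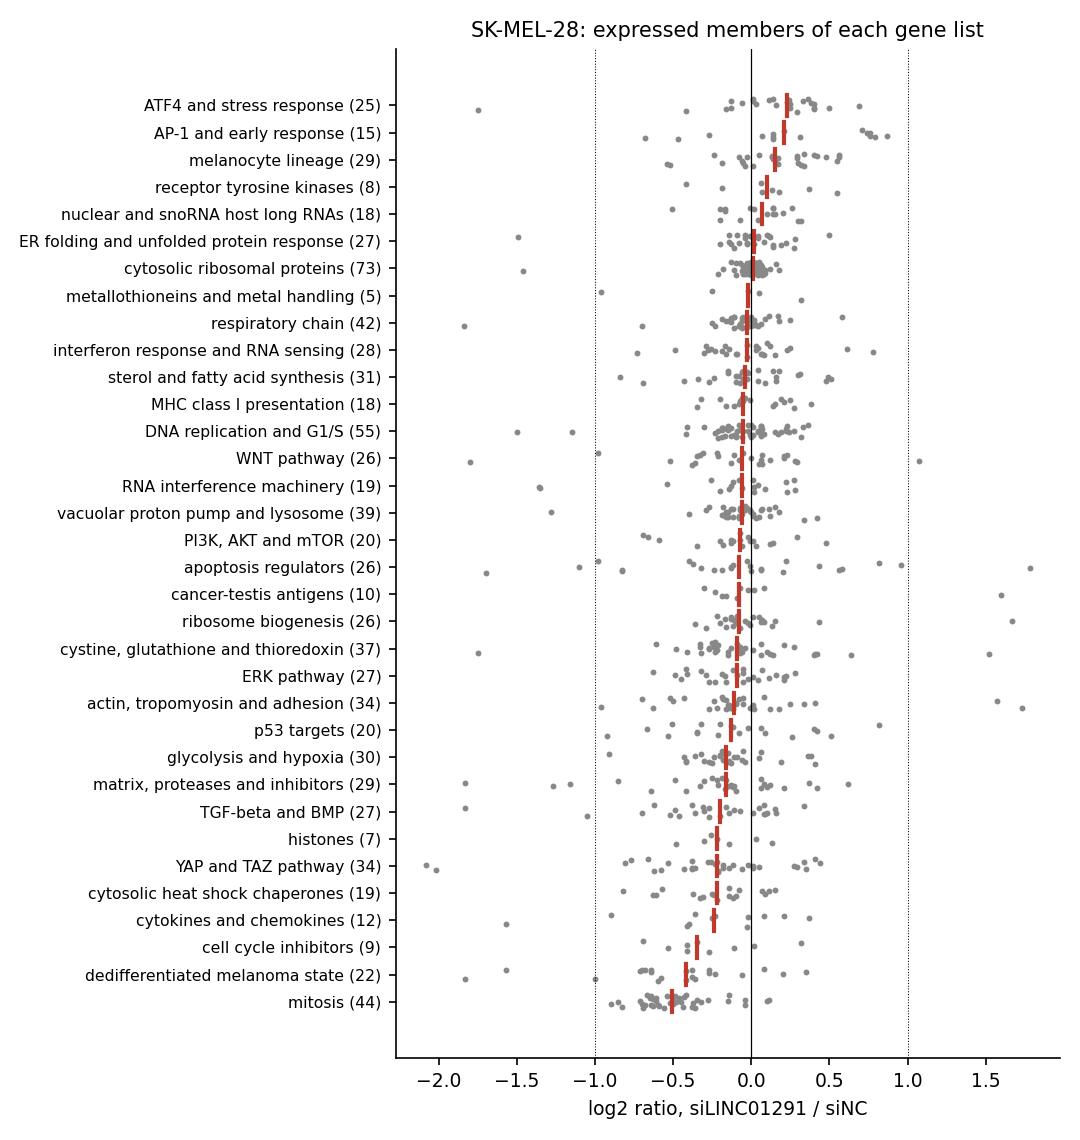
Log2 ratio of siLINC01291 over siNC in SK-MEL-28 (x axis) for the expressed members of 34 gene lists (y axis, number of expressed members in brackets), each grey point a gene and each red bar the median of its list. The mitosis list lies lowest with a median of -0.51, and lists such as cytosolic ribosomal proteins cluster at 0 with 1 distant member.

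Early response factors leaned upward, with 12 of 15 expressed members of the AP-1 list above 0. Of these members 6 were at least 1.5-fold higher (6.32% over all expressed genes), FOSB (FPKM 1.20 and 2.25), FOS (7.04 and 12.3), IER2 (5.26 and 9.16), KLF2 (1.08 and 1.93), EGR3 and MAFF, with log2 ratios of 0.71 to 0.87. JUN was at least 1.5-fold lower (11.9 and 7.6, -0.68). The median of the list was 0.21 and no member reached 2-fold.

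The ATF4 list, a transcription programme of amino acid and protein stress, had 19 of 25 expressed members above 0 and a median of 0.23. Of the 25 members 4 hold a low word. TRIB3, a pseudokinase induced by ATF4, had an FPKM of 17.7 in siNC and 29.4 in siLINC01291 (0.69). DDIT3, the factor CHOP, had 6.31 and 9.15 (0.50), and its 3′ UTR holds 1 low word. Of the 6 members below 0, the ATF4 target SLC7A11 was lowest at -1.75, followed by VLDLR, a lipoprotein receptor whose 3′ UTR also holds low words, at -0.42. Redox genes as a whole were near 0, with a median of -0.09 over 37 members. Among them TXNRD1, the cytosolic thioredoxin reductase, had 172 and 116 (-0.61), while CTH, which makes cysteine by transsulfuration, had 8.54 and 13.6 (0.64).

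Regulators of apoptosis went both ways, with a median of -0.08 over 26 expressed genes. CASP9, the initiator caspase of the mitochondrial route, had an FPKM of 3.35 in siNC and 1.74 in siLINC01291 (log2 ratio -0.98), and its 3′ UTR holds the joined low word. BIRC3, an inhibitor of apoptosis induced by NF-kappaB, had 243 and 75 counts (-1.70). MCL1, which blocks cell death, and BCL2L11, which promotes it, were both at -0.83, and the death-promoting genes HRK and BBC3 were at 0.96 and 0.82.

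Lists of complexes with many subunits held single low members and had medians near 0. Over all expressed genes 5.08% were at least 1.5-fold lower and 6.32% higher, and at 2-fold the shares were 1.54 and 1.72%. Single members in lists of this size are near or below such shares. Of 73 expressed cytosolic ribosomal protein genes, RPL5 alone differed by 1.5-fold or more, and the median of the list was 0.01. Its partner in the 5S ribonucleoprotein, RPL11, had an FPKM of 357 in siNC and 415 in siLINC01291. Of 29 nuclear-encoded respiratory chain genes SDHD alone reached 2-fold, followed by NDUFS3 of complex I (9.38 and 5.93, log2 ratio -0.70), and the median was -0.01. Of 27 genes of folding in the endoplasmic reticulum PDIA6, a disulfide isomerase, alone reached 1.5-fold (63.4 and 23.1, -1.49).

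Other lists also held few changed members. Of 15 expressed proton pump genes ATP6V1G1 alone was 1.5-fold or more away from siNC (37.4 and 15.8, log2 ratio -1.28). Over all expressed genes 5.08% were 1.5-fold lower and 6.32% higher. Of 19 genes of RNA interference 2 were at least 2-fold lower (1.54% over all expressed genes), at a list median of -0.06. These were AGO2, the Argonaute that cuts target RNA (11.0 and 4.38, -1.36), and DCP1A, a decapping factor (8.31 and 3.34, -1.35). RPL5, SDHD, NDUFS3, PDIA6, ATP6V1G1, AGO2 and DCP1A each hold at least 1 low word. So do members of these lists that were not 1.5-fold lower. Of 5 ribosomal protein genes with a low word 1 was at least 1.5-fold lower, of 6 folding genes 1 and of 3 proton pump genes 1. Among 3 such nuclear-encoded respiratory chain genes 2 were, and among 5 of RNA interference 2.

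Several other pathways had medians nearer to 0. Interferon response and RNA sensing genes had a median of -0.03 over 28 members with none at 2-fold, and MHC class I genes -0.05 over 18 with none at 1.5-fold. Genes of the ERK pathway had -0.09 over 27. Its 10 kinases had -0.05, and its 17 output and feedback genes -0.19, with 12 of them below 0. PI3K, AKT and mTOR genes had -0.07 over 20, with AKT1 at 0.48. Glycolysis and hypoxia genes leaned downward by small amounts, with 24 of 30 below 0 and a median of -0.16, and with the glucose transporter SLC2A1 lowest (FPKM 25.9 and 14.1, -0.91). WNT genes had -0.06 over 26, with TCF7L1, a repressor of WNT targets, at 1.07 beside DKK1 at -1.80 and the receptor FZD3 at -0.98. In the actin and adhesion list of 34, TPM4 and the integrin ITGA9 (0.874 and 2.68, 1.57) were at least 2-fold higher (1.72% over all expressed genes). MYH9, a nonmuscle myosin of that list that holds a low word, was at -0.96.

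The words were unevenly spread over the lower and higher genes of SK-MEL-28. Of the 113 searched genes that were at least 2-fold lower, 85 (75.2%) hold CTATGAA or TCTATGA, and 43 hold the joined word, against 14.6% of all searched genes for either. Of the 68 searched genes that were at least 2-fold higher, 3 (4.41%) hold a low word and 15 (22.1%) hold TCGGAGA, against 1.85% of all searched. At an FPKM of at least 5 the shares were 86.1% of 72 lower genes for a low word and 38.7% of 31 higher genes for TCGGAGA.

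Read from the words, genes with either low word had a median log2 ratio of -0.18 and 5.85% of them were at least 2-fold lower, and genes with neither had 0.01 and 0.328%. The joined word went with the largest shift. Its 364 genes had a median of -0.31, 82.7% were below 0, 11.8% were at least 2-fold lower and none was 2-fold higher. CTATGAA without the joined word had -0.13 (703 genes), TCTATGA without it -0.15 (387), the 6-base core CTATGA alone -0.05 (857), and genes with no core 0.02 (7671). Genes with 1 site had -0.15 and genes with 2 or more had -0.27.

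The size of the shift varied with where the word lay and with the length of the UTR. The words in the coding sequence but not in the 3′ UTR went with a median of -0.07 (1826 genes), and the joined word there with -0.14 (331). Genes with a low word have longer 3′ UTRs, with a median of 2916 bases against 981. Within UTRs of 50 to 500 bases the medians with and without a word were -0.26 and 0.02, and within UTRs of 3000 bases or more they were -0.16 and 0.00. TCGGAGA in the 3′ UTR went with a median of 0.16, and 8.11% of its genes were at least 2-fold higher. Genes are not independent replicates, and the part of the words in any difference was not tested.

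**Figure D4:**
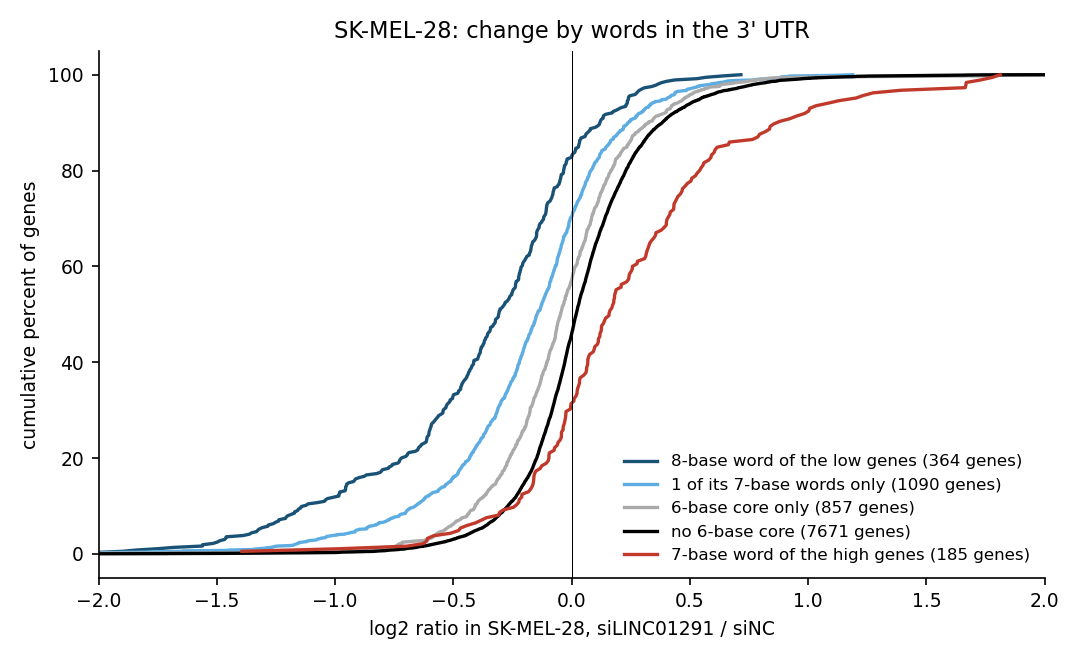
Cumulative percent of genes (y axis) against the log2 ratio in SK-MEL-28 (x axis, drawn from -2 to 2) for classes of searched genes by words in the 3′ UTR, with the number of genes of each class in the legend. The curve of the 8-base word lies farthest to the left and that of TCGGAGA, the 7-base word of the high genes, farthest to the right of genes without the 6-base core.

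Secreted and signalling genes were among the lower genes without a word. Of the 113 searched lower genes 28 hold neither word. They include ANKRD1, CXCL8, MMP1, BIRC3, TGFBR2 and PRNP, and, named after their values were seen, SERPINB2, a serine protease inhibitor (FPKM 2.85 in siNC and 1.1 in siLINC01291, log2 ratio -1.38), and AHR, the aryl hydrocarbon receptor (4.19 and 2.08, -1.04). Among the 85 with a word, and also named after their values were seen, were TFAM, which packages mitochondrial DNA (17.6 and 7.11, -1.34), SKP2, a ubiquitin ligase subunit that marks CDKN1B for decay (3.16 and 1.29, -1.32), MAD2L1, a spindle checkpoint protein (17.1 and 7.95, -1.14), and the arginine methyltransferase PRMT5 (16.3 and 7.27, -1.20).

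The A375 pair used other libraries throughout, so its values can be set beside those of SK-MEL-28, but a difference between the lines cannot be tested with 1 library a group. Of the 190 lower genes of SK-MEL-28 147 were expressed in A375, where 37 (25.2%) were 2-fold or more lower as well and 2 were 2-fold or more higher. A 1.5-fold lower level was met by 87 of them (59.2%). Over all genes expressed in A375 these shares were 1.06 and 3.94%. The median log2 ratio of these 147 genes was -1.24 in SK-MEL-28 and -0.67 in A375. Of the 212 higher genes 118 were expressed in A375, where 7 (5.93%) reached 2-fold in the same direction and 6 in the opposite one, and 35 (29.7%) reached 1.5-fold in the same direction. Over all genes expressed in A375 0.929% were 2-fold and 3.95% 1.5-fold higher. Their medians were 1.25 and 0.41.

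Single genes varied between the lines. SLC7A11 had the lower ratio in A375 (-2.27 against -1.75 in SK-MEL-28), and PDIA6 (-1.42 and -1.49) and ATP6V1G1 (-1.43 and -1.28) were alike. WWTR1 had -1.22 in A375 and -2.02 in SK-MEL-28, IGSF3 -0.74 and -1.68, and PRNP -0.12 and -1.17. The mitosis list had a median of -0.12 in A375, the AP-1 list -0.13 and the ATF4 list -0.33, next to -0.51, 0.21 and 0.23 in SK-MEL-28. For genes expressed in both lines, those with either low word had a median of -0.18 in SK-MEL-28 and -0.09 in A375, and those with TCGGAGA 0.16 and 0.10.

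**Figure D5:**
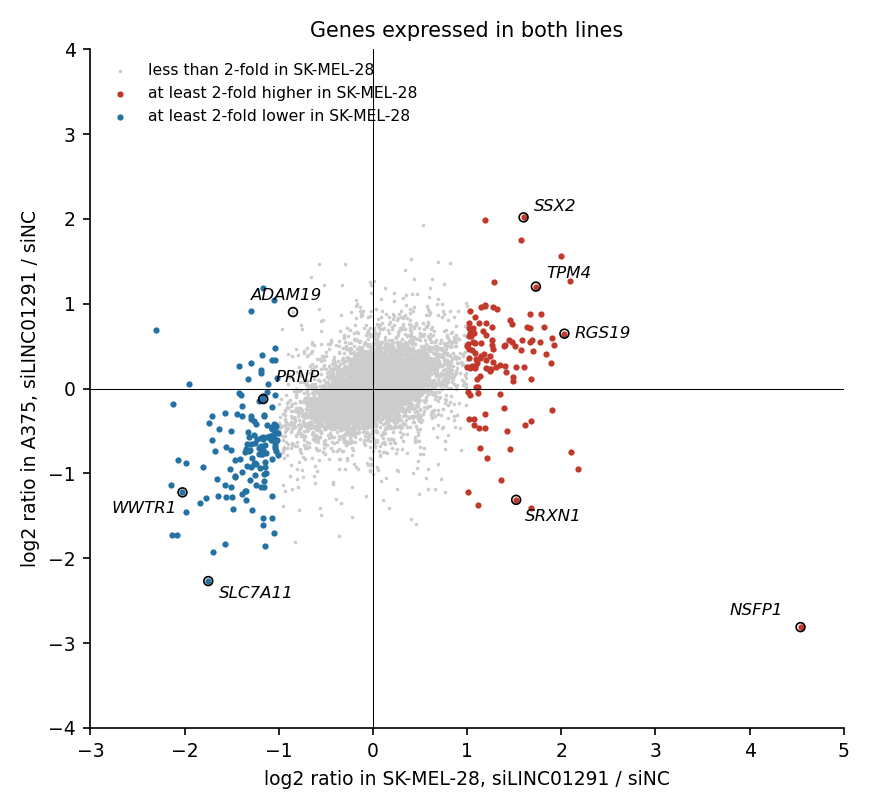
Log2 ratio in A375 (y axis) against that in SK-MEL-28 (x axis) for genes expressed in both lines, each point a gene, coloured where it was higher (red) or lower (blue) in SK-MEL-28 by 2-fold or more. Most blue points lie below 0 on the A375 axis, with a median of -0.67, and PRNP lies near 0 there, while SRXN1 and NSFP1 lie on opposite sides in the lines.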

How the data were processed

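RNA sequencing values of 4 libraries were used, 1 each of A375 and SK-MEL-28 cells with siNC or siLINC01291. Raw counts per gene were deposited by the authors, who per the labels' protocols trimmed reads and removed duplicate sequences with fastp, removed ribosomal RNA, and used HISAT2 for alignment, StringTie for assembly of transcripts and HTSeq for counting. The submitters' processing notes name hg19, DESeq2 and edgeR without a role, and tool versions are not given in the sources used here. FPKM as deposited equal the deposited CPM divided by 1 length per gene, and set only the expression minimum and the levels printed. TPM, which the authors scaled to a common sum per library before deposit, entered no comparison. Of the table's 18175 rows, 272 have no Ensembl ID and 17701 IDs are in GENCODE 29. Coordinates and 3′ UTRs come from GENCODE 29 on GRCh38.

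Log2 ratios were computed from the counts with edgeR 4.0.16 (R 4.3.3), TMM factors over the 4 libraries and a prior count of 2. TMM assumes that most genes do not differ. A gene was expressed where either library of a line reached an FPKM of 1, and called at 2-fold, without a test. Exact binomial (Clopper-Pearson) intervals of 95% were computed with scipy 1.17.1 in Python 3.11.15, and drawings with matplotlib 3.10.9. Removal of duplicate sequences before counting can lower the counts of abundant genes. Reads are not independent molecules, and the intervals cover counting error only. Words were searched in 3′ UTRs of at least 50 bases.

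The comparison, the 38 gene lists and the words were chosen with earlier results of these data known. Named genes are LINC01291 and fixed melanoma genes, the 15 highest and 15 lowest at an FPKM of at least 5, the 8 largest gains and 8 largest losses of normalised CPM, the 5 highest and 5 lowest among genes near absent from 1 library, and the 4 members with the largest ratio per list. A few genes that meet this rule are left out of the text and drawings. List members printed beside these for contrast were chosen after their values were seen. Alternatives covered scaling (DESeq2 1.42.0 size factors, totals, upper quartile), prior counts of 0.5 and 5, other FPKM minimums, counting error and the 8-base word.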

Additional observations from a re-analysis of the deposited data

Results flagged for a closer look

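Genes are given here because the libraries of SK-MEL-28 and A375 moved in opposite directions. With 1 library a group the difference between the lines was not tested. SRXN1, the sulfiredoxin that repairs peroxiredoxins, had a log2 ratio of 1.52 in SK-MEL-28 and of -1.31 in A375. ADAM19, a membrane metalloprotease, had -0.85 in SK-MEL-28 and 0.90 in A375. NSFP1 is a pseudogene, and reads of its parent gene may be counted for it, so its values are uncertain. It had 4.54 in SK-MEL-28, where it went from 3 counts in siNC to 112 in siLINC01291, and -2.81 in A375. The fitted value of NSFP1 depends on the prior count, and the counting interval of its ratio ran from 12.2-fold to 180-fold.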

How the results depend on the processing

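No paired analysis was possible because each group holds 1 library and the labels carry no replicate numbers, and no library could be left out for the same reason. The counts of genes at least 2-fold higher and lower (212 and 190) moved most with the expression minimum. They were 49 and 83 at an FPKM of at least 5, and 563 and 498 with no minimum. Counting only genes whose interval lay beyond 1.5-fold gave 99 higher and 134 lower. Alternatives added after seeing the data gave 70 higher and 113 lower for protein-coding genes only, and 209 higher and 105 lower without genes that hold a low word. The difference in median between genes with and without a low word was -0.19, and -0.32 for the 8-base word. Other scalings and prior counts left the counts within 1.5 times of these, at 146 to 253 higher and 150 to 218 lower. The log2 ratio of LINC01291 ranged from -1.17 to -1.13. The median of all expressed genes shifted to at most 0.041 under another scaling. Medians of 4 lists changed sign, all within 0.13 of 0. These were WNT (0.06 at an FPKM of at least 5), respiratory chain (0.01 by totals), receptor tyrosine kinases (-0.13 without a minimum) and metallothioneins (0.02 and 0.05). Depth limits what can be said of genes near 3 counts, and replicate error cannot be estimated.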
